A study of Homo sapiens with 12 samples.

Results

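The 5 genes described here are MUC5AC and MUC5B, which encode secreted gel-forming mucins, and 3 genes of mucus-secreting epithelium, AGR2, SPDEF and FOXA2. They were found by symbol among the 64252 gene IDs of the count data, and each symbol matched 1 ID. The genes were chosen because earlier work on these same libraries had shown their levels to be high with wild-type Dicer and low with the mutants. Their levels are therefore a description, and no p-value is given for them. All 5 were among the 15094 genes that passed the filter on low counts. They passed through the wild-type libraries alone, so nothing is read from that.

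RNA came from MDA-MB-231, an established line of human breast cancer cells that lack the usual receptors (triple-negative). The cells had been transfected with a plasmid for Dicer, which releases mature microRNAs from their hairpin precursors. The plasmid carried wild-type Dicer, or Dicer with mutation 1, mutation 2 or mutation 3, and each of the 4 groups held 3 libraries. The labels number the mutations without naming them, and cells with an empty plasmid or none were not analysed here. Every group received a Dicer plasmid with a lipid transfection reagent. Only wild-type libraries are numbered as replicates in the labels, so a mutant library's number is a name and nothing more. Whether the libraries are separate cultures is not stated in the labels, and p-values thus rest on a spread between samples that may be technical.

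Gel-forming mucins are very large glycoproteins that link through disulfide bonds into the polymer network of mucus. MUC5AC is a main mucin of the stomach surface and of airway goblet cells, and MUC5B is a main mucin of airway glands. AGR2 is a protein disulfide isomerase of the endoplasmic reticulum that takes part in mucin folding. SPDEF is an ETS-family transcription factor that drives goblet cell differentiation. FOXA2 is a forkhead transcription factor of endoderm-derived epithelium, and in airway epithelium it is known as a restrainer of goblet cell differentiation.

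The genes lie on 4 chromosomes of hg38, by GENCODE v29. MUC5AC (chromosome 11, 1157953 to 1201138, plus strand) and MUC5B (chromosome 11, 1223066 to 1262172, plus strand) are neighbours in the gel-forming mucin cluster. AGR2 lies on chromosome 7 (16791811 to 16833433, minus strand), SPDEF on chromosome 6 (34537802 to 34556333, minus strand) and FOXA2 on chromosome 20 (22581005 to 22585455, minus strand). Their exons span 17448 bases for MUC5AC, 18598 for MUC5B, 2845 for AGR2, 1914 for SPDEF and 2603 for FOXA2.

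The 2 mucins differ from the other 3 genes in carrying long repeats, which code for the stretches that receive O-linked sugars. The most frequent in-frame run of 24 coding bases is shown for each, because repeats bear on how uniquely a read can be placed. It occurred 15 times in MUC5AC and 6 times in MUC5B.
MUC5AC repeat: gctcctacaaccagcacaacctct
MUC5B repeat: tcctccaccccagggaccacctgg
Of the 100-base windows of the coding transcript with the longest coding sequence, 10.5% in MUC5AC and 19.1% in MUC5B occurred more than once among the 5 genes. No window of AGR2, SPDEF or FOXA2 did. Read pairs with a mapping quality under 10 were not counted, so pairs from the repeats may be missing from the mucin counts. The part of this in the levels was not tested.

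The RefSeq promoter table (GRCh38.p14) matched AGR2 and SPDEF, and LINC00261, a long noncoding RNA gene beside FOXA2 that is described further on. MUC5AC, MUC5B and FOXA2 had no entry. The 250 bases before each start are printed 5′ to 3′ on the gene's own strand because these 3 genes were low together in every mutant library. Capitals mark a forkhead motif. AGR2 covers chr7:16805000-16805249, SPDEF chr6:34556330-34556579 and LINC00261 chr20:22578643-22578892, all on the minus strand. The RefSeq start of AGR2 lies inside the longer GENCODE gene given above, whose far end is the start used for distances to neighbouring genes.
AGR2 promoter: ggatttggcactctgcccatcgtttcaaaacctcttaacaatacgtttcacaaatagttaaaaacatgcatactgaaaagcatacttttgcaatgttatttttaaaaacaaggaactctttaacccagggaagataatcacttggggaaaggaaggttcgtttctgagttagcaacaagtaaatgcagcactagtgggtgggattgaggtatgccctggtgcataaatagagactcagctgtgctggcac
SPDEF promoter: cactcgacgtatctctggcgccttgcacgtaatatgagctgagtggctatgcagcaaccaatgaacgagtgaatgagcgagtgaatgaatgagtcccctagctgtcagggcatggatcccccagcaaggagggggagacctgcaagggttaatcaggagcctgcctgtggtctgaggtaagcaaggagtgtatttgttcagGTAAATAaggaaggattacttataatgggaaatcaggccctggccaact
LINC00261 promoter: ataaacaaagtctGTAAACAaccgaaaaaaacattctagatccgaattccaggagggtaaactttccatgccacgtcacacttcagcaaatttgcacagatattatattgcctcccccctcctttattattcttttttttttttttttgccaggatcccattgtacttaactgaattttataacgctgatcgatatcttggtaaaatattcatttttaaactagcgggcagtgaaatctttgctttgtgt
The forkhead search used TGTTTAC on both strands, and likewise TGTTTGC. It also took TATTTAC on both strands, and likewise TATTTGC. SPDEF held TATTTAC on the opposite strand, 49 to 43 bases before its start, and LINC00261 held TGTTTAC on the opposite strand, 237 to 231 bases before its start. AGR2 held no match. Of 35116 promoters of the same length in the table, 10.56% held a forkhead match. None of the 3 held CCGGAT, the SPDEF core (5.852% of promoters, both strands), or the TATA box TATAAA on the gene's strand (6.803%). The motifs do not overlap each other, and a match is a description of these letters and not a measured site.

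Library totals ran from 13507341 to 17078273 counts, and levels are given as CPM, the counts relative to library size after scaling by the trimmed mean of M-values. DICER1 lay at 27.4, 45.2 and 47.4 CPM in wild-type replicates 1, 2 and 3 and at 38.8 to 45.7 CPM in the 9 mutant libraries. It passed no test against wild type, with edgeR adjusted p of 0.493, 0.406 and 0.916 for mutations 1, 2 and 3. It was called lower with mutation 3 when wild-type replicate 1 was left out (log2 fold change -0.23, adjusted p 0.000372). Wild-type replicate 1 stood apart from the other wild-type libraries. Its counts differed from theirs by 141.9 and 135.5 times the sampling noise (chi-square per degree of freedom), against 1.256 between wild-type replicates 2 and 3 and 1.29 to 3.41 within the mutant groups. Its Spearman correlation over genes was 0.945 with its own group, 0.927 with mutation 1, 0.973 to 0.974 with mutation 2 and 0.946 to 0.947 with mutation 3. Ratios, list counts and calls of named genes that changed without it are therefore given beside the results.

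The labelled cell line was checked against its known markers. Of 15 MDA-MB-231 markers, 14 reached 5 CPM in a library, among them vimentin (VIM, 723 to 1883 CPM) and AXL (1131 to 1717 CPM). TWIST1 stayed at or under 0.169 CPM. Estrogen receptor ESR1 stayed at or under 0.653 CPM and FOXA1 at or under 0.131 CPM. Yet of the 12 genes listed as low or absent in this line 7 reached 5 CPM. Highest were KRT19 (209 to 408 CPM), CLDN4 (93.6 to 433 CPM) and ERBB2 (68.4 to 111.5 CPM). EPCAM, GATA3, CLDN3 and CDH1 reached 33.3, 29.97, 18.8 and 13.8 CPM in their highest libraries. For these 7 genes the check was not met. Of 12 airway and lung markers none reached 5 CPM and 5 were at 0 in every library, among them NKX2-1, SCGB1A1 and FOXJ1. Their summed level was 2.10 to 3.88 CPM in wild type and 2.94 to 7.59 CPM in the mutants. Of 12 stomach and intestine markers 1 reached 5 CPM (TFF2), while CDX2 and FABP1 were at 0. Their sum was 4.79 to 6.87 CPM in wild type and 1.76 to 3.75 CPM in the mutants. Most of it was TFF2, at 4.46, 5.70 and 4.27 CPM in wild-type replicates 1, 2 and 3 and 1.13 to 3.27 CPM in the mutants. Of the rest, GPA33 was highest in wild type (0.489 CPM on average) and CDH17 with mutation 3 (0.978 CPM). The part of this sum in the levels of the 5 genes was not tested. Of 14 liver and pancreas markers 1 reached 5 CPM (SERPINA1), with sums of 9.77 to 46.9 CPM in wild type and 47.6 to 71.4 CPM in the mutants. Of 12 breast epithelium markers 4 did so, with sums of 40.6 to 69.5 CPM and 50.5 to 90.6 CPM. Of 12 blood and stromal markers 4 did so, with sums of 39.8 to 41.7 CPM and 21.3 to 121.6 CPM, and PTPRC stayed at or under 0.168 CPM. The endothelial marker PECAM1, singled out after its values were seen, lay at 2.76, 17.1 and 15.3 CPM in wild-type replicates 1, 2 and 3 and at or under 0.915 CPM in the mutants. It thus moved with the 5 genes, and its part in their levels was not tested. In bulk RNA, fewer cells of a type and less RNA per cell cannot be told apart.

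All 5 genes were present in each wild-type library and at or near 0 in each of the 9 mutant libraries. For every gene the lowest wild-type library lay above the highest mutant library. The 5 genes together took 0.00893% of the counts in wild-type replicate 1 and 0.1266% and 0.1254% in wild-type replicates 2 and 3. The mutant libraries held 6 to 27 counts of all 5 genes together. For scale, 36.5% of the tested genes were called lower with mutation 1, 20.1% with mutation 2 and 31.2% with mutation 3, at an adjusted p under 0.05. The same contrasts chose the 5 genes, so nothing is read from their number against these shares.

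**Figure D1:**
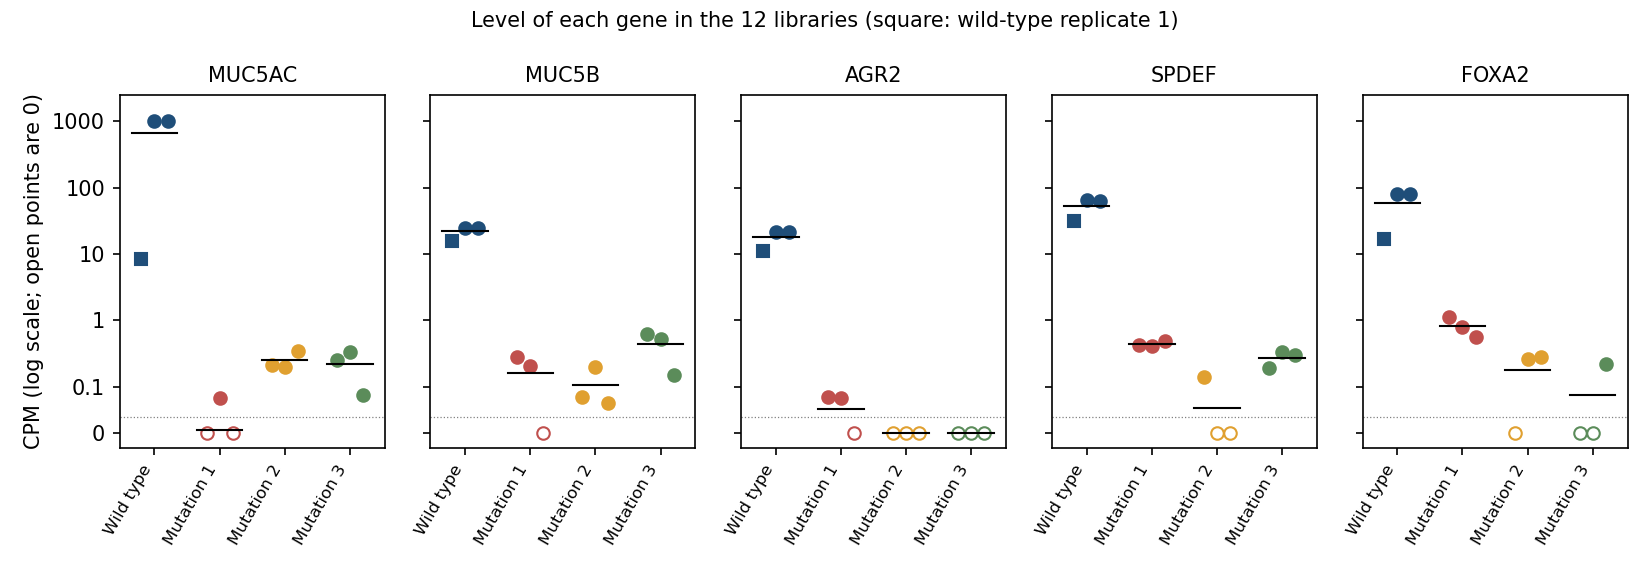
Each panel shows 1 gene, with CPM on a logarithmic axis and the libraries grouped by the Dicer plasmid. Points are libraries, squares mark wild-type replicate 1, open points are libraries at 0 and bars are group means. Every wild-type library lies above every mutant library, and MUC5AC spreads from 8.47 to 1014.5 CPM within wild type.

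MUC5AC was the most variable of the 5 within wild type. It lay at 8.47 CPM (129 counts) in wild-type replicate 1, 1014.5 CPM (18160 counts) in replicate 2 and 1002.2 CPM (15490 counts) in replicate 3. The group mean of 675 ± 577 CPM (SD, n = 3) therefore describes none of its libraries. Mutation 1 libraries carried 0, 0.0671 and 0 CPM, a single count in all. Mutation 2 libraries carried 0.211, 0.195 and 0.338 CPM, and mutation 3 libraries 0.250, 0.327 and 0.0741 CPM. Mutations 2 and 3 overlapped, and mutation 1 lay below both. The highest mutation 1 library and the lowest mutation 3 library held 1 count each, however, and differed only by library size. No mutant library reached wild type, although wild-type replicate 1 lay much nearer to the mutants than its group did. It was 25.0 times the highest mutant library, and wild-type replicates 2 and 3 averaged 119.1 times replicate 1. The mean ratio of wild type to mutant was 2721 for mutation 2 and 3110 for mutation 3. For mutation 1 it was 30163, with an exact (Clopper-Pearson) 95% counting interval of 5194 to 1143200. The mutation 1 mean was 0.0902 times that of mutation 2 (counting interval 0.00222 to 0.641). It was 0.103 times that of mutation 3 (counting interval 0.00248 to 0.756).

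MUC5B, the other gel-forming mucin, lay next to MUC5AC in the genome but varied little within wild type. Its levels were 15.8, 25.0 and 25.0 CPM in wild-type replicates 1, 2 and 3 (21.9 ± 5.31, SD, n = 3). Mutation 1 libraries carried 0.281, 0.201 and 0 CPM, mutation 2 libraries 0.0704, 0.195 and 0.0564 CPM, and mutation 3 libraries 0.626, 0.523 and 0.148 CPM. The 3 mutant groups overlapped. The wild-type mean was 136 times that of mutation 1, 205 times that of mutation 2 and 50.8 times that of mutation 3. MUC5B shares 434 exon bases (2.33%) with the antisense gene MUC5B-AS1. Counting ignored strand, so reads there cannot be assigned, and MUC5B-AS1 was listed at 0 in all 12 libraries.

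AGR2, the disulfide isomerase, was the gene most often at 0. It lay at 10.96, 21.7 and 21.7 CPM in wild-type replicates 1, 2 and 3 (18.1 ± 6.20, SD, n = 3). Mutation 1 libraries carried 0.0704, 0.0671 and 0 CPM, and every library of mutations 2 and 3 was at 0. In all, 7 of 9 mutant libraries had no count, and the other two had 1 each. The wild-type mean was 395 times that of mutation 1 (counting interval 105 to 3157). Against a floor of 3 counts per library, wild type was at least 94.5-fold higher than mutation 2 and at least 89.7-fold higher than mutation 3. Such floors and intervals cover counting error only.

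SPDEF, the ETS factor of goblet cells, lay at 31.0, 65.8 and 63.8 CPM in wild-type replicates 1, 2 and 3 (53.5 ± 19.5, SD, n = 3). Mutation 1 libraries carried 0.422, 0.403 and 0.479 CPM, mutation 2 libraries 0.141, 0 and 0 CPM, and mutation 3 libraries 0.188, 0.327 and 0.296 CPM. Every mutation 1 library lay above every library of the other two mutants. The wild-type mean was 123 times that of mutation 1 and 198 times that of mutation 3. For mutation 2 the ratio was 1141 (counting interval 355 to 10614). Counts summed to 18, 2 and 12 in mutations 1, 2 and 3, and the mutation 1 mean was 9.26 times that of mutation 2 (counting interval 2.45 to 91.0).

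FOXA2, the forkhead factor, was next to MUC5AC in its spread within wild type. It lay at 16.5 CPM in wild-type replicate 1 and at 80.4 and 79.8 CPM in replicates 2 and 3 (58.9 ± 36.7, SD, n = 3). Mutation 1 libraries carried 1.13, 0.806 and 0.559 CPM, mutation 2 libraries 0, 0.259 and 0.282 CPM, and mutation 3 libraries 0, 0 and 0.222 CPM. As with SPDEF, every mutation 1 library lay above every library of mutations 2 and 3. The wild-type mean was 71.0 times that of mutation 1 and 327 times that of mutation 2. For mutation 3 it was 795 times (counting interval 307 to 4360). Counts summed to 35, 9 and 3, and the mutation 1 mean was 4.60 times that of mutation 2 and 11.2 times that of mutation 3 (counting interval 3.96 to 63.8). FOXA2 shares 70 exon bases (2.69%) with the overlapping gene AL121722.1.

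The low level of wild-type replicate 1 was uneven over the genes. Wild-type replicates 2 and 3 averaged 119.1 times replicate 1 for MUC5AC and 4.85 times for FOXA2, but 2.09 times for SPDEF, 1.98 times for AGR2 and 1.58 times for MUC5B. Even so, replicate 1 was 25.3 times the highest mutant library for MUC5B, 156 times for AGR2, 64.8 times for SPDEF and 14.7 times for FOXA2. MUC5AC made up 10.2% of the counts of the 5 genes in replicate 1 and 84.0% in each of the other two wild-type libraries. Leaving replicate 1 out moved the wild-type means up. The ratios then became 4050 and 4628 for MUC5AC against mutations 2 and 3, and 155, 232 and 57.6 for MUC5B against mutations 1, 2 and 3. They were 149, 1374 and 239 for SPDEF and 96.2, 442 and 1078 for FOXA2. For AGR2 the ratio was 472 against mutation 1, with bounds of at least 113-fold and 107-fold against mutations 2 and 3. For MUC5AC against mutation 1, with its single count, it was 44888.

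**Figure D2:**
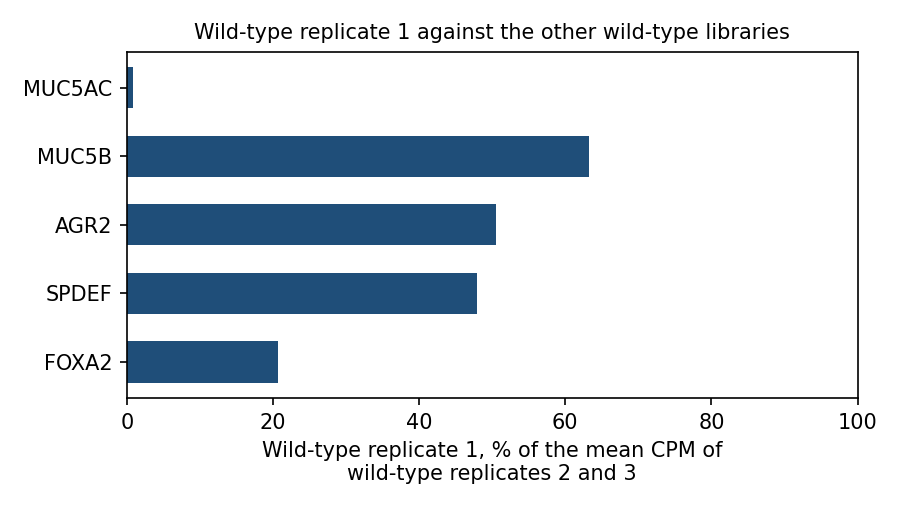
Bars give the CPM of wild-type replicate 1 as a percentage of the mean CPM of wild-type replicates 2 and 3, 1 bar per gene, on an axis from 0 to 100%. MUC5AC lies at 0.840% and FOXA2 at 20.6%, while SPDEF, AGR2 and MUC5B lie at 47.9%, 50.5% and 63.3%.

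Divided by exon length, the order of levels within wild type was MUC5AC at 38.7 ± 33.1 CPM per kb, SPDEF at 28.0 ± 10.2, FOXA2 at 22.6 ± 14.1, AGR2 at 6.37 ± 2.18 and MUC5B at 1.18 ± 0.285 (SD, n = 3). The spreads of the first 3 overlapped across libraries. Within wild-type replicates 1, 2 and 3, SPDEF lay above FOXA2, at 16.2, 34.4 and 33.3 CPM per kb against 6.35, 30.9 and 30.7. MUC5AC lay above both in replicates 2 and 3, at 58.1 and 57.4 CPM per kb, but not in replicate 1. AGR2 lay at 3.85, 7.64 and 7.62 CPM per kb in replicates 1, 2 and 3, below FOXA2 in each. MUC5B lay below AGR2 in each library, with 1.35 CPM per kb at its highest against 3.85 for AGR2 at its lowest. In wild-type replicate 1 alone MUC5AC was the lowest of the 5, at 0.485 CPM per kb. With mutation 1, FOXA2 (0.319 ± 0.109 CPM per kb) and SPDEF (0.227 ± 0.0207) were the highest and overlapped in spread.

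The genes around each of the 5 were chosen by position, with a start within 250 kb, and were tested over all 15094 genes. Over all of these, 32.5%, 16.9% and 28.1% were called higher than wild type with mutations 1, 2 and 3, and 36.5%, 20.1% and 31.2% lower. All comparisons with wild type share the same 3 wild-type libraries. LINC00261, whose start lies 6.8 kb from that of FOXA2 on the same strand, was absent from all mutant libraries as FOXA2 nearly was. It lay at 10.2, 35.03 and 30.9 CPM in wild-type replicates 1, 2 and 3 and at 0 in all 9 mutant libraries. It was at least 117-fold, 133-fold and 126-fold lower in mutations 1, 2 and 3 against the floor of 3 counts per library, with edgeR adjusted p of 0.000839, 0.00228 and 0.00106. Like FOXA2, it was lower in wild-type replicate 1 than in the others of its group. The other 3 genes in the FOXA2 window were not tested, and LNCNEF among them was at 0 in all libraries.

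In the mucin cluster, none of the tested genes flanking MUC5AC and MUC5B fell as far as the mucins did. Of 9 genes near MUC5AC 5 were tested, and of these 3, 0 and 1 were called higher with mutations 1, 2 and 3, and 0, 2 and 2 lower. AP2A2, a subunit of the clathrin adaptor AP-2, went from 95.7 ± 1.68 CPM in wild type to 126 ± 0.268 with mutation 1 (adjusted p 2.01e-05), 87.3 ± 2.68 with mutation 2 (0.0421) and 83.9 ± 1.11 with mutation 3 (0.00433; SD, n = 3). BRSK2, a kinase gene, rose from 1.70 to 5.18 CPM with mutation 1 (adjusted p 1.79e-05) and fell to 1.08 and 1.00 CPM with mutations 2 and 3 (0.0277 and 0.00846). Without wild-type replicate 1 the BRSK2 call for mutation 2 was lost (0.0554). TOLLIP-DT, a transcript divergent from TOLLIP, rose from 0.327 to 0.993 CPM with mutation 1 (adjusted p 0.0187) and to 0.829 CPM with mutation 3 (0.0494). CHID1 and TOLLIP were called in none of the 3 comparisons, with adjusted p from 0.0523 to 0.693, and each was called in all 3 without wild-type replicate 1. CHID1 was then higher with mutations 1, 2 and 3 (log2 fold change 0.30, 0.27 and 0.23). TOLLIP was then lower with each, as the mucins were, but by little (-0.24, -0.29 and -0.25). The intestinal mucin MUC2, 83.1 kb from MUC5AC, lay at 0.197, 0.782 and 0.582 CPM in wild type and at or under 0.211 CPM in the mutants, below the test's filter. The gastric mucin MUC6 was at 0 throughout.

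Near AGR2, 4 of 7 genes were tested. TSPAN13, a tetraspanin, rose from 8.45 ± 0.865 CPM to 12.3 ± 1.78 with mutation 1 (adjusted p 0.0141) and fell to 1.12 ± 0.335 with mutation 2 (4.81e-06) and 4.14 ± 0.169 with mutation 3 (0.000469; SD, n = 3). AHR, the aryl hydrocarbon receptor, rose from 93.8 to 173 CPM with mutation 1 (adjusted p 1.66e-05) and to 130 with mutation 3 (0.00194), and lay at 89.1 CPM with mutation 2 (0.594). Without wild-type replicate 1, AHR was also called lower with mutation 2 (log2 fold change -0.20, 2.21e-05). ANKMY2 rose from 22.6 to 30.1 and 32.4 CPM with mutations 1 and 3 (adjusted p 0.0025 and 0.000757). BZW2 passed in none (0.0956 to 0.722), and without wild-type replicate 1 it was called higher with mutation 3 (0.15, 0.0082). AGR3, the close relative of AGR2 next to it, was at 0 in all 12 libraries.

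Near SPDEF, 6 of 8 genes were tested and 3, 1 and 4 were called higher with mutations 1, 2 and 3. ILRUN rose from 146 ± 72.7 to 266 CPM with mutation 1 and to 242 with mutation 3 (adjusted p 0.00925 and 0.0251), and its wild-type libraries lay at 230, 106 and 101 CPM. Without wild-type replicate 1 it was also called higher with mutation 2 (log2 fold change 0.43, 2.65e-19). Its antisense partner ILRUN-AS1 rose with the same mutants (adjusted p 0.000529 and 0.000962). Whether the pair shares exon bases was not measured, and unstranded counts could not assign reads in such bases. BLTP3A rose from 34.3 to 43.2, 47.8 and 50.4 CPM (0.00234, 0.000715 and 9.64e-05). NUDT3 rose with mutation 3 (0.0163), SNRPC fell with mutation 1 (0.0071) and RPS10, a ribosomal protein gene with pseudogenes, fell with mutation 3 (0.0113). NUDT3 without wild-type replicate 1 was also called higher with mutations 1 and 2 (2.06e-05 and 6.27e-06), and SNRPC then was higher with mutation 3 (0.00468), where its log2 fold change turned from -0.10 to 0.13.

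**Figure D3:**
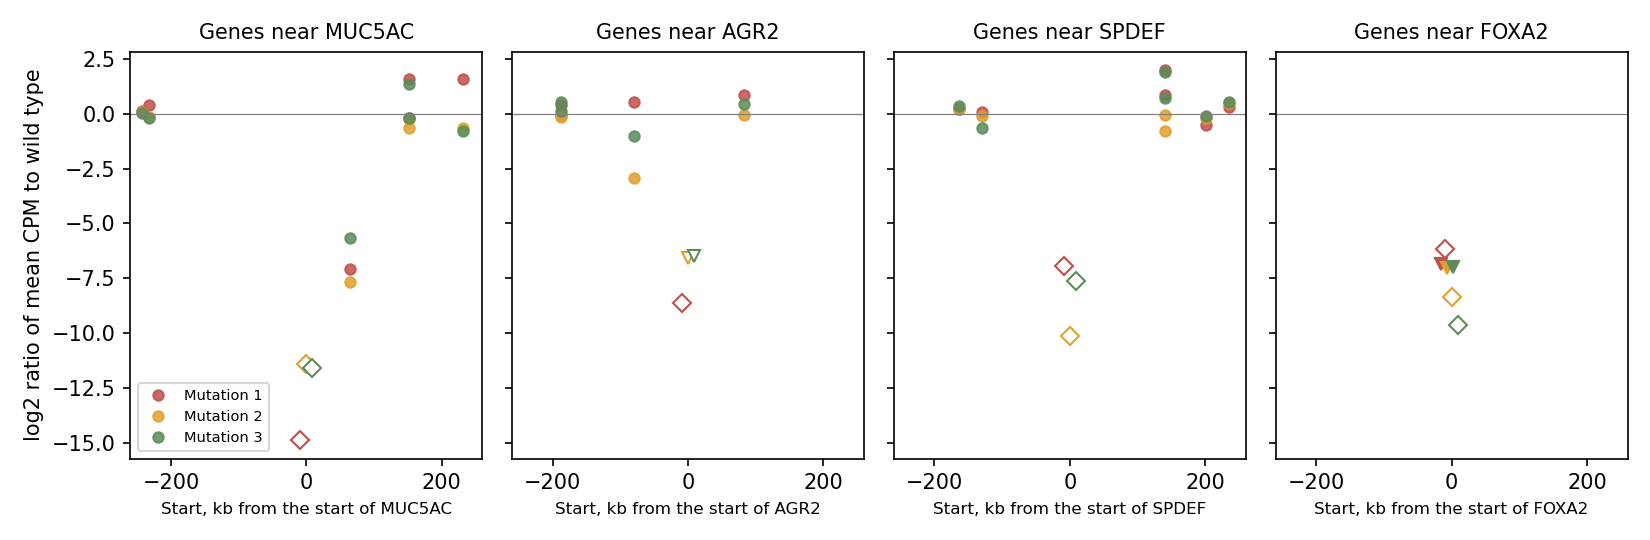
Points are tested genes by the distance of their start from that of the named gene, along the chromosome in kb, and by the log2 ratio of their mean CPM to wild type, coloured by mutation. Open symbols at the centre are the named gene, shifted slightly so that the mutations can be told apart, and triangles are bounds for groups at 0. The low points near 65 kb in the first panel are MUC5B, and the filled triangles in the last panel are LINC00261. The other neighbours lie far above these points.

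The wider mucus pathway was taken from 7 lists holding 225 other genes, of which 144 were tested and 21 were at 0 in every library. With mutation 1, 72 were higher and 42 lower than wild type, beside 32.5% and 36.5% of all genes tested. With mutation 2, 25 were higher and 37 lower, beside 16.9% and 20.1% of all genes. With mutation 3, 55 were higher and 39 lower, beside 28.1% and 31.2%. The median log2 fold change over the 144 genes was 0.36, 0.00 and 0.09, against -0.04, -0.01 and -0.01 over all genes. Without wild-type replicate 1 the counts became 84 and 52, 67 and 58, and 74 and 54 of 150 tested genes. The change for mutation 2 exceeded 1.5 times. Over all genes the shares then were 40.2% higher and 42.5% lower with mutation 1. They were 33.0% and 34.9% with mutation 2, and 38.2% and 38.8% with mutation 3. Counts of single lists given below without that library stand beside these same shares.

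**Figure D4:**
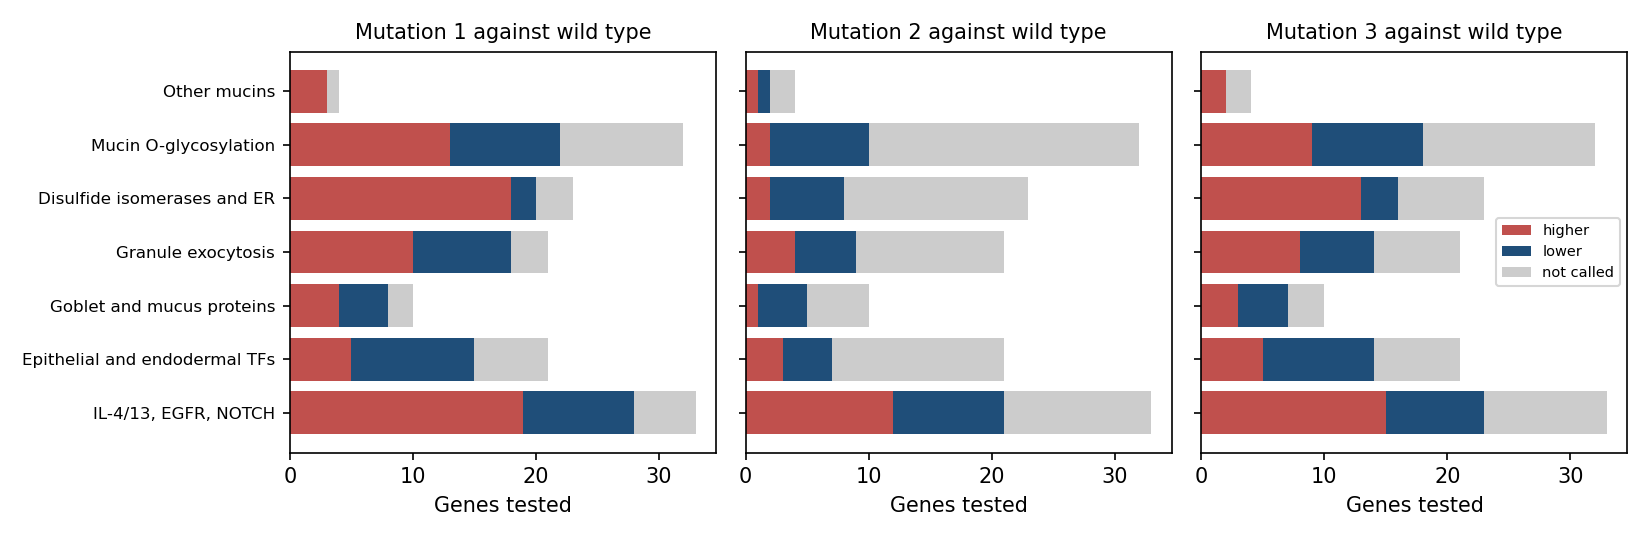
Bars count the tested genes of each list that were higher, lower or not called against wild type (edgeR, adjusted p under 0.05), 1 panel per mutation. The list of disulfide isomerases and endoplasmic reticulum genes has 18 of 23 genes higher with mutation 1 and 2 with mutation 2, beside 32.5% and 16.9% of all genes.

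Of 21 other mucins 4 were tested, and the rest were near or at 0. MUC1, a membrane mucin, rose with mutation 1. It lay at 7.68, 1.23 and 1.36 CPM in wild-type replicates 1, 2 and 3, at 41.5, 38.1 and 39.5 CPM with mutation 1, at 2.32, 2.98 and 2.43 CPM with mutation 2 and at 3.004, 2.16 and 2.82 CPM with mutation 3. The log2 fold change was 3.55 ± 0.53 (SE) for mutation 1 (edgeR adjusted p 0.000142). Mutations 2 and 3 gave -0.39 and -0.35 (0.623 and 0.622), but 1.00 and 1.04 without wild-type replicate 1 (0.00022 and 9.7e-05). The sialomucin CD164 rose from 122 ± 1.93 CPM to 239, 173 and 203 CPM with mutations 1, 2 and 3 (1.82e-07, 0.000149 and 2.73e-06). PODXL rose from 532 to 926 CPM with mutation 1 (1.67e-05) and to 636 with mutation 3 (0.0295). OVGP1, an oviduct glycoprotein, fell from 2.62 to 0.577 CPM with mutation 2 (0.0187). OVGP1 without wild-type replicate 1 was also called lower with mutations 1 and 3 (8.5e-08 and 3.27e-06) and PODXL then was higher with mutation 2 (0.0136). The list's counts then were 3 higher and 1 lower with each mutation. No other secreted or membrane mucin of the list, MUC2 included, exceeded 0.782 CPM in any library.

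Among 10 tested goblet and mucus-associated secreted proteins, 4, 1 and 3 were higher and 4, 4 and 4 lower with mutations 1, 2 and 3. Over all genes 32.5%, 16.9% and 28.1% were higher and 36.5%, 20.1% and 31.2% lower. The counts without wild-type replicate 1 were 6, 3 and 5 higher and 5, 9 and 8 lower of 13. ZG16B, a secreted lectin-like protein, was near 0 with mutations 1 and 3 and low with mutation 2. It lay at 8.14, 20.5 and 18.6 CPM in wild type, at 0.211, 0.0671 and 0 with mutation 1, at 1.9004, 1.56 and 1.35 with mutation 2 and at 0.1252, 0 and 0 with mutation 3 (edgeR adjusted p 2.15e-06, 0.000224 and 3.02e-06). No wild-type library overlapped a mutant one. The trefoil peptides, small proteins secreted with mucins, were singled out after their values were seen, since none reaches a mean of 5 CPM. TFF3 lay at 2.03, 3.58 and 4.08 CPM in wild type and at or under 0.188 CPM in the mutants (5.3e-05, 0.00034 and 0.000105). TFF2 fell from 4.81 ± 0.775 CPM to 3.02, 1.34 and 1.98 CPM (0.00629, 7.03e-05 and 0.000161). TFF1 fell from 1.84 ± 0.965 CPM to 0.775 and 0.0423 CPM and to 0 in mutation 3 (0.0323, 0.000574 and 0.000123), and unlike the others it was highest in wild-type replicate 1. Without that library the TFF1 call for mutation 1 was lost (0.0836). WFDC2, an epithelial secreted protein, rose from 0.973 to 8.20 CPM with mutation 1 (3.55e-06). LCN2, a siderophore-binding protein, rose from 50.9 to 114 CPM with mutation 1 (0.0238) and to 276 with mutation 3 (0.000477), with wild-type libraries at 98.3, 25.6 and 28.7 CPM. SLC12A2, a chloride cotransporter, rose from 21.6 to 50.7 CPM with mutation 2 (3.4e-05). Calls gained without wild-type replicate 1 were WFDC2 lower with mutations 2 and 3 (0.00251 and 0.00408), LCN2 higher with mutation 2 (2.46e-56) and SLC12A2 higher with mutation 1 (3.28e-07).

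**Figure D5:**
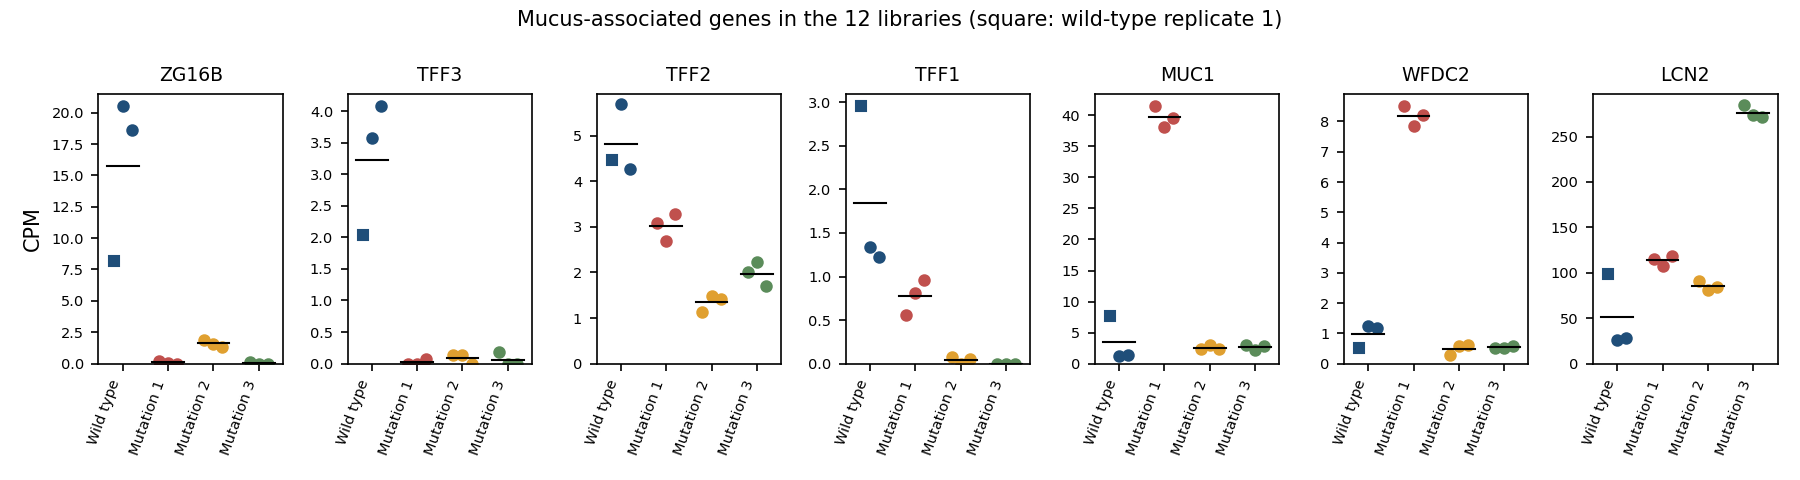
Each panel shows the CPM of 1 gene on its own linear axis from 0, with libraries as points, wild-type replicate 1 as a square and group means as bars. ZG16B and TFF3 are low in all mutant libraries, whereas MUC1 and WFDC2 are high with mutation 1 and LCN2 is highest with mutation 3, at 276 CPM.

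The disulfide isomerases and endoplasmic reticulum genes of secretory cells, the list AGR2 belongs to by function, mostly rose with mutations 1 and 3. With mutation 2 more of them were called lower than higher, none lower by 2-fold. Of 23 tested genes 18 were higher and 2 lower with mutation 1, 2 and 6 with mutation 2, and 13 and 3 with mutation 3. Their median log2 fold changes were 1.04, -0.02 and 0.43. All genes gave shares of 32.5% and 36.5%, 16.9% and 20.1%, and 28.1% and 31.2%. The list's counts were 19 and 3, 12 and 6, and 17 and 3 when wild-type replicate 1 was left out. HSPA5, the main chaperone of this compartment, rose from 1044 to 3817 CPM with mutation 1 (adjusted p 8.59e-08), and HSP90B1 from 1111 to 3188 CPM (4.07e-06). Both were also called higher with mutation 2 without wild-type replicate 1 (0.00114 and 8.63e-35), and HSPA5 with mutation 3 (4.18e-12). CREB3L2, a membrane-bound transcription factor of secretory cells, rose from 109 to 581, 167 and 209 CPM with mutations 1, 2 and 3 (9.75e-08, 0.00478 and 0.00014). ERN1, which senses unfolded proteins, rose from 19.0 to 52.8 CPM with mutation 3 (6.87e-05). SEL1L, a part of the degradation machinery, fell from 84.7 to 67.5, 55.7 and 59.5 CPM (0.0303, 0.0029 and 0.00391). KDELR3, a retrieval receptor, rose with mutations 1 and 3 and fell with mutation 2 (4.13e-07, 0.000691 and 0.00676). XBP1 was listed at 0 in all 12 libraries, which may reflect the gene annotation used for counting, so the level of its transcript is not known from these data.

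Of 32 tested genes of mucin O-glycosylation, 13 were higher and 9 lower with mutation 1, 2 and 8 with mutation 2, and 9 and 9 with mutation 3. The shares over all genes were 32.5% and 36.5%, 16.9% and 20.1%, and 28.1% and 31.2%. Leaving out wild-type replicate 1 gave 16 and 12, 11 and 14, and 12 and 14 of 34. The transferase GALNT3, which starts O-glycans, fell from 52.8 ± 26.4 to 18.6 CPM with mutation 2 (adjusted p 0.00409), with wild-type libraries at 22.4, 66.1 and 69.9 CPM. GALNT3 without wild-type replicate 1 was also called higher with mutation 1 (log2 fold change 0.29, 7.95e-08) and lower with mutation 3 (-0.60, 4.31e-20), and B4GALT1 then was higher with mutation 2 (0.13, 0.000543). B4GALT1 rose from 207 to 593 CPM with mutation 1 (4.96e-08) and to 287 with mutation 3 (0.00041). ST6GALNAC2, a sialyltransferase, rose from 5.65 to 22.7 and 24.4 CPM with mutations 1 and 3 (2.8e-05 and 3e-05) and fell to 2.57 with mutation 2 (0.00762). C1GALT1C1, the chaperone of the core 1 enzyme, fell from 53.7 to 33.4, 46.0 and 34.0 CPM (5.42e-06, 0.0221 and 1.26e-05). GCNT1, which makes core 2, fell to 13.6 and 10.1 CPM with mutations 2 and 3 from 20.9 (0.00244 and 3.15e-05). The fucose transporter SLC35C1 fell from 30.9 to 6.76 and 12.7 CPM with mutations 1 and 3 (2.67e-08 and 1.89e-06).

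Of 21 tested genes of mucin granule exocytosis, 10 were higher and 8 lower with mutation 1, 4 and 5 with mutation 2, and 8 and 6 with mutation 3. All genes tested gave 32.5% and 36.5%, 16.9% and 20.1%, and 28.1% and 31.2%, and nothing is read from the list's counts. Leaving out wild-type replicate 1 gave 11 and 9, 9 and 6, and 10 and 7. RAB27B and its effector SYTL2, which act in granule docking, fell with all 3 mutants. SYTL2 went from 12.3 to 1.997, 7.70 and 1.78 CPM (adjusted p 1.23e-07, 0.00339 and 1.93e-07) and RAB27B from 15.8 to 8.09, 9.07 and 4.18 CPM (0.000359, 0.00334 and 5.16e-06). VAMP2, a granule SNARE, rose from 39.5 to 87.6 CPM with mutation 1 (9.58e-08) and to 51.2 CPM with mutation 3 (0.000591).

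Among 21 tested epithelial and endodermal transcription factors, 5, 3 and 5 were higher and 10, 4 and 9 lower with mutations 1, 2 and 3. Beside them, 32.5%, 16.9% and 28.1% of all genes were higher and 36.5%, 20.1% and 31.2% lower. The list's counts were 7, 8 and 7 higher and 11, 9 and 10 lower when wild-type replicate 1 was left out. FOXQ1, a forkhead factor known from gastric mucin secretion, fell to nearly the same level in each mutant. It lay at 26.9, 41.1 and 38.4 CPM in wild type and at 7.74, 7.55 and 7.73 CPM on average with mutations 1, 2 and 3 (edgeR adjusted p 2.03e-06, 2e-05 and 3.75e-06). KLF5 fell from 42.8 to 18.5, 25.2 and 18.3 CPM (2.74e-06, 0.000353 and 4.39e-06). SOX9 fell from 58.5 to 20.4 CPM with mutation 1 (7.57e-09) and rose to 84.2 and 67.3 CPM with mutations 2 and 3 (8.56e-05 and 0.0104). The ETS factor EHF, a relative of SPDEF, fell to 62.1 CPM with mutation 1 from 79.7 (0.000126) and rose to 125 and 99.9 CPM with mutations 2 and 3 (1.65e-05 and 0.000368). The forkhead relative FOXA1 stayed at or under 0.131 CPM.

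Among 33 tested genes of the IL-4, IL-13, EGF receptor and NOTCH signals that feed into mucin expression, 19, 12 and 15 were higher and 9, 9 and 8 lower with mutations 1, 2 and 3. For all genes the shares were 32.5%, 16.9% and 28.1% higher and 36.5%, 20.1% and 31.2% lower. The list's counts became 22, 21 and 20 higher and 11, 13 and 11 lower of 34 when wild-type replicate 1 was left out. NOTCH1 rose from 37.5 to 111, 83.8 and 113 CPM with mutations 1, 2 and 3 (adjusted p 1.55e-08, 2.47e-06 and 3.76e-08). The NOTCH target HES4 rose from 8.67 to 162 CPM with mutation 1 (1.97e-06), and without wild-type replicate 1 it was also called higher with mutations 2 and 3 (1.41e-06 and 1.84e-25). EREG, an EGF receptor ligand, rose from 44.6 to 87.1 and 110 CPM with mutations 1 and 3 (1.41e-07 and 4.53e-08) and fell to 19.3 CPM with mutation 2 (8.46e-07). The cytokine IL1B rose from 18.6 to 75.2, 47 and 125.2 CPM (4.38e-06, 0.000391 and 9.66e-07). IL13RA1, a receptor chain for IL-13, rose from 100 to 165 CPM with mutation 1 (1.04e-06) and fell to 87.3 CPM with mutation 2 (0.018).

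Between mutants the 5 genes gave few counts, and the pathway genes are given beside all genes tested. Against mutation 1, mutation 2 had 35 of 144 genes higher and 75 lower, beside 33.6% and 31.8% of all genes tested. Mutation 3 had 23 higher and 52 lower than mutation 1, beside 22.5% and 20.2%. Against mutation 2, mutation 3 had 46 higher and 30 lower, beside 25.7% and 27.2%. The median log2 fold changes were -0.48, -0.24 and 0.12, against 0.03, 0.01 and 0.00 over all genes. In the first of these comparisons 18 of 23 disulfide isomerase and endoplasmic reticulum genes were lower and none higher. Leaving out wild-type replicate 1, which is in neither group, changed these counts through the shared fit. They became 47 higher and 89 lower, 37 and 78, and 74 and 45 of 150 genes. The shares of all genes were then 40.6% and 39.6%, 33.6% and 32.9%, and 36.3% and 36.6%. Of the 23 disulfide isomerase and endoplasmic reticulum genes 22 were then lower in the first comparison.

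Genes whose levels ran most like those of the 5 were sought among 11052 genes by Pearson's r of log2 CPM over the 12 libraries. These are descriptions, since 12 libraries of 4 groups, with 1 library apart, share their group differences. Most like MUC5AC were RXRA (0.992), CYP3A5 (0.991), PHB2 (0.990), ANXA11 (0.988) and SAP18 (0.986). A high r does not mean a fall of like size. RXRA averaged 177 CPM in wild type and 89.5, 101 and 93.6 CPM in mutations 1, 2 and 3. PHB2 went from 208 to 152, 156 and 154 CPM. ANXA11 went from 347 to 226, 251 and 245 CPM, and SAP18 from 148 to 90.0, 94.2 and 89.7 CPM. CYP3A5, a drug-metabolising enzyme, lay at 1.84, 25.5 and 23.3 CPM in wild-type replicates 1, 2 and 3 and at 0.287, 0.488 and 0.451 CPM on average in mutations 1, 2 and 3. SURF1, AGR2 and GSTZ1 were most like MUC5B (0.983, 0.969 and 0.965), and NALF1, SCIN and INHBB most like AGR2 (0.988, 0.986 and 0.983). SPDEF had SORBS3, AGR2 and TTC8 (0.985, 0.981 and 0.978), and FOXA2 had SHKBP1, ITGB2 and F2RL1 (0.992, 0.974 and 0.973). Among these too some falls were partial, as for SHKBP1 (114 to 82.0, 70.9 and 69.2 CPM). Others reached nearly 0, as for NALF1 (8.71 to 0.0266, 0 and 0 CPM). ITGB2, an integrin chain of leukocytes, lay at 5.25, 82.3 and 82.0 CPM in wild type and at 1.82, 0.436 and 0.180 CPM on average in the mutants. The names depended on the measure. Without wild-type replicate 1, 3 of 5 were shared for MUC5AC, 1 of 3 for MUC5B, 2 of 3 for FOXA2 and 0 of 3 for AGR2 and SPDEF. With Spearman's correlation 1 of 3 was shared for MUC5B and for FOXA2 and none for the other 3 genes.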

How the data were processed

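Poly(A)-selected RNA of MDA-MB-231 cells was sequenced in 12 libraries, 3 for each of 4 Dicer plasmids. The deposited values are raw counts, 1 per read pair and gene, over 64252 gene IDs. Per the file headers, featureCounts counted pairs over hg38 Ensembl exons, ignoring strand and dropping mapping qualities under 10. Trimming with cutadapt 1.9.1, checks with FastQC 0.11.8 and the tools STAR, SAMtools and DESeq2 are named in the submitters' processing notes. Symbols were found for 56591 IDs, which held 99.7% of counts. The files hold no gene lengths, so exon lengths came from GENCODE v29.

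Levels are CPM after trimmed mean of M-values scaling. All 12 libraries entered 1 edgeR 4.0.16 quasi-likelihood fit (R 4.3.3, 8 residual degrees of freedom), with genes kept by filterByExpr (minimum count 10, total 15; 15094 genes). A call needed an adjusted p (Benjamini-Hochberg, over all of them) under 0.05. Every adjusted p in the text comes from this fit, except those given without wild-type replicate 1. The latter come from the same test refitted on the remaining libraries with its own filter. Wild-type replicates 2 and 3, the only wild-type libraries left there, differed by 1.256 times the sampling noise, a spread that may be technical. SEs of log2 fold changes are approximate. The test was also run on simulated data, which held few changed genes and no library set apart like wild-type replicate 1. That run therefore cannot vouch for the p-values given here.

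The members, the gene lists and the rule for naming genes were chosen with earlier results of these data known. Named were the 5 members, the tested genes of the other-mucin list, up to 4 genes per list and comparison with the lowest adjusted p among called genes at 5 CPM or more, genes within 250 kb, the 5 genes most like MUC5AC and the 3 most like each other member, defining markers and DICER1. Not all genes the rule allows are described. Alternatives were DESeq2 1.42.0, other scalings, no filter, a prior count of 2, a 2-fold limit, fits on 2 groups, and each library left out. Library totals of 13507341 to 17078273 counts set the precision, and a group at 0 was given 3 counts per library.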

Additional observations from a re-analysis of the deposited data

How the results depend on the processing

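No paired analysis was possible because the labels number no mutant library as a replicate. Every wild-type to mutant ratio of the 5 genes kept its direction under each scaling and each library left out. This was bound to hold, so nothing is read from it. The genes were chosen on these values, and for each the lowest wild-type library lay far above the highest mutant library. The log2 ratio of mutant to wild type ran, over libraries left out, from -7.77 to -6.51 for MUC5B with mutation 1, -8.44 to -7.37 with mutation 2 and -6.03 to -5.26 with mutation 3, from -9.08 to -8.04 for AGR2 with mutation 1, from -10.4 to -8.20 for SPDEF with mutation 2 and from -10.1 to -8.26 for FOXA2 with mutation 3. These rest on at most 20 mutant counts each. For MUC5AC with mutation 1, which has 1 count, the range was -15.5 to -11.5. The ends nearest 0 for MUC5AC, for SPDEF with mutation 2 and for FOXA2 with mutation 3 leave out the library that holds every count, so they are bounds. Counts of pathway genes called depended most on wild-type replicate 1. Over libraries left out, mutation 2 against wild type ran from 17 to 67 higher and 27 to 58 lower, mutation 3 against mutation 1 from 16 to 37 higher, and mutation 3 against mutation 2 from 36 to 74 higher, the upper ends being without that library. Fits on the 2 groups compared gave 14 higher and 14 lower for mutation 2 against wild type, 33 higher for mutation 3 against wild type, 37 higher for mutation 3 against mutation 1 and 73 higher for mutation 3 against mutation 2; the cause was not tested. Asking also for a 2-fold change left 46 higher for mutation 1, 7 and 15 higher and lower for mutation 2, and 18 and 20 for mutation 3 against wild type. Between mutants it left 20 and 37 for mutation 2 against mutation 1, 9 and 16 for mutation 3 against mutation 1, and 17 and 11 for mutation 3 against mutation 2. The DESeq2 test, the DESeq2 median-of-ratios scaling and no filter kept every count within 1.5 times. Scaling to library totals was run only for the ratios of the 5 genes.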
